A study of Mus musculus with 25 samples.

Results

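The genes described here encode the molecular motors of microtubule transport, the kinesins, kinesin light chains, cytoplasmic dyneins and dynactin. Members were all rows of the deposited expression table whose symbol was Kif, Klc or Dctn followed by a number, or began with Dync, with a mean of at least 10 over the samples. The rule gave 53 genes of 16220 listed identifiers, and no row with a matching name fell under the minimum. The lowest was Kif27 with a mean of 11.9, followed by Kif6 with 15.1 and Kif14 with 15.8. The study sequenced RNA of 25 BXD mouse strains from dorsal root ganglia, which flank the spinal cord and hold the cell bodies of sensory neurons. BXD strains are recombinant inbred lines whose founders were C57BL6/J and DBA2/J, and inbreeding has fixed the allele of either founder at nearly all loci of a strain. All mice were 8 weeks old, and by the ending of the strain name 16 strains were TyJ and 9 were RwwJ. Each strain had 1 library, for which the sources used here give neither sex nor number of animals. The spread between strains therefore holds genotype, animal, dissection and library together, and p-values measure only that spread.

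A sensory neuron makes most of its proteins in the cell body and sends them along an axon that can be many times longer than the cell body is wide. Most kinesins walk toward the plus ends of microtubules and carry vesicles, mitochondria and other cargo outward, while cytoplasmic dynein, bound to its activator dynactin, carries signalling endosomes and worn organelles back. Other kinesins serve the mitotic spindle, build cilia or shorten microtubules. A ganglion also holds satellite glia, Schwann cells, vessels and blood cells, so the members need not come from neurons.

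By family the members were 3 kinesin-1 heavy chains and 4 kinesin light chains, 4 kinesin-2, 7 kinesin-3 and 5 kinesin-4 genes, 9 genes of the kinesin-5 to -8, -10 and -12 families, 2 kinesin-9, 2 kinesin-11 and 3 kinesin-13 genes. Dynein gave 5 genes of cytoplasmic dynein-1 and 2 of the ciliary dynein-2, and dynactin gave 6. The last member, Kif1bp, is a kinesin-binding protein and not itself a motor, and matched by its name. Of these, 38 had a mean of at least 100 and 29 a mean of at least 1000. Values are scaled counts, which are read counts that the authors brought to a common scale between libraries and rounded. Levels of different genes are compared as scaled counts per kb of exon, with exon lengths over all annotated transcripts of a gene. Which transcripts were expressed was not analysed, so ratios and orders between genes depend on these lengths, which are the same in every strain.

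The libraries held an estimated 20020000 to 40150000 reads assigned to the listed genes (23 libraries with a clear estimate, median 22960000). The neuron markers were high in every strain, with Tubb3 between 70436 and 109907. The 6 marker scores, each the mean log2 level of a marker list, showed how far tissue content differed between libraries. The neuron score spanned 1.33-fold from the lowest to the highest strain, satellite glia 1.86-fold, myelinating Schwann cells 2.53-fold and dividing cells 4.08-fold. Skeletal muscle markers spanned 69.1-fold, and spinal cord markers 137-fold with the highest score in BXD48. In other strains the spinal cord markers Slc32a1, Olig2 or Opalin were at 0. BXD21, BXD36 and BXD40 had the lowest values of a length index, the mean log2 deviation of long genes minus that of short genes in a library. In bulk tissue, fewer cells of a type and less RNA per cell cannot be told apart.

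The conventional kinesin-1 motor and its adaptors led the levels. Klc1, the main light chain that links kinesin-1 to cargo in neurons, had the highest level per kb of all members, 10528 ± 972 (SD, n = 25 strains). It lay above Kif5a in 25 of 25 strains. Kif5a, the neuronal kinesin-1 heavy chain, came next with 4676 ± 729 per kb, then Dctn3, a small shoulder subunit of dynactin, with 3856 ± 980. Kif21a, a kinesin-4 motor that slows microtubule growth, had 3545 ± 407, Kif1a, the kinesin-3 motor of synaptic vesicle precursors and dense-core vesicles, 3184 ± 520, and Kif5c, another neuronal heavy chain, 3001 ± 417 per kb. Below Klc1 the order was loose. Kif5a exceeded Dctn3 in 18 of 25 strains, Dctn3 exceeded Kif21a in 17, Kif21a exceeded Kif1a in 20, and Kif1a exceeded Kif5c in 16. Dctn2 and Dctn1, larger subunits of dynactin, had 2371 and 2277 per kb, with Dctn2 above in 13 of 25 strains, so their levels were not separated.

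**Figure D1:**
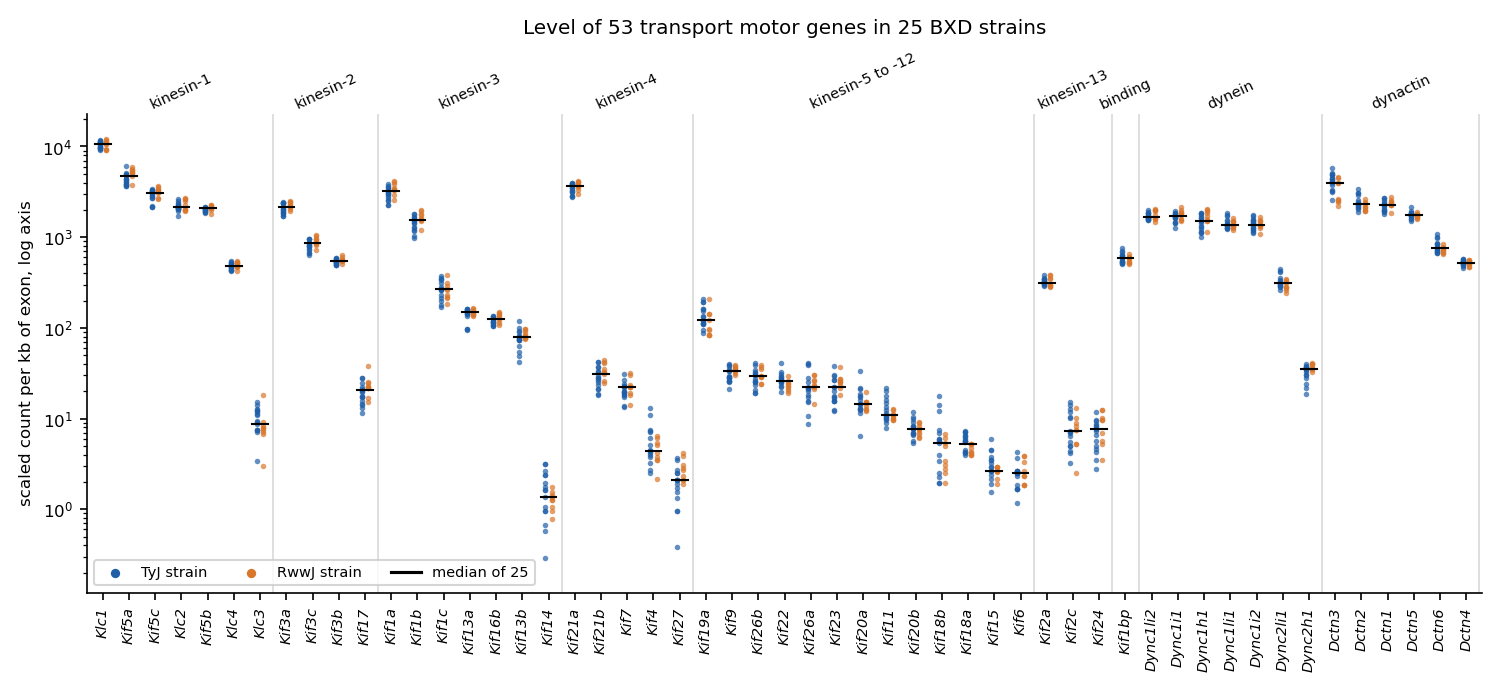
Scaled count per kb of exon, on a log axis, of the 53 genes grouped by family, with 1 point for each of 25 strains (blue TyJ, orange RwwJ) and a bar at the median. Klc1 lies highest at a mean of 10528 and Kif14 lowest at 1.52.

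In scaled counts, Klc1 ran from 36997 in BXD48 through a median of 43252 to 49658 in BXD60. Kif5a ran from 25512 in BXD1 through 33334 to 42156 in BXD13, and Kif1a from 20920 in BXD36 through 29870 to 38433 in BXD68. Kif21a ran from 18156 through 23773 to 26917, and Kif5c from 15272 through 22120 to 26078. None of these 5 genes varied by more than 1.84-fold between its lowest and highest strain. The lowest members belonged to division and cilia: Kif14, a kinesin-3 motor of cytokinesis, had 1.52 per kb, and Kif27 and Kif6, both linked to motile cilia, had 2.29 and 2.51.

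Paralogues of a family differed in level. Among the 3 kinesin-1 heavy chains, Kif5a made up a median of 48.5% of their summed level per kb (range 42.0% to 52.5%), Kif5c 31.4% and the ubiquitous Kif5b 21.1%. Per kb, Kif1a exceeded its paralogue Kif1b, which carries mitochondria and synaptic vesicle precursors, by a median of 2.09-fold. The ratio ranged only from 1.86 to 2.37 over the 25 strains. Their mean scaled counts were close, 29703 and 26745, so the size of the ratio rests mostly on the exon lengths of 9330 and 17608 bases. Kif21a exceeded Kif21b by 78.2- to 176-fold. Kif3a, which pairs with Kif3b or Kif3c in kinesin-2, exceeded Kif3b by a median of 3.85-fold and Kif3c by 2.51-fold.

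The ratio of Kif1a to Kif1c, a kinesin-3 motor expressed in many tissues, moved much more, from 6.72 in BXD55 to 21.9 in BXD73. For dynein, the intermediate chains Dync1i1 and Dync1i2, which bind dynactin, were close per kb: Dync1i2 was above Dync1i1 in 3 of 25 strains, with a ratio of 0.622 to 1.08. In scaled counts Dync1i2 had the higher mean, 11548 against 6088. Their exon lengths were 8280 and 3572 bases, so their order rests on the lengths used. The dynein heavy chain Dync1h1, the motor subunit itself, had 1540 ± 305 per kb and stayed below Dctn1 in all 25 strains. Within dynactin, the ratio of Dctn3 to Dctn1 ranged from 0.851 in BXD68 to 2.69 in BXD15.

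Across strains the members varied about as much as other genes. Their median SD of log2(scaled count + 1) was 0.25, and that of all 16152 genes with a mean of at least 10 was also 0.25. Taken over strains, the 90th percentile was at least 2 times the 10th in 10 of 53 members (18.9%), against a background of 23.9% of all genes. Among members with a mean of at least 1000 this held for 0 of 29, against 5.04% of all genes at that level. The steadiest members were Kif5b with an SD of 0.09, Dctn4 with 0.09, Kif3b with 0.10 and Dctn5 with 0.11, all broadly expressed parts of the machinery. Kif5b ran from 14303 in BXD55 through 16583 to 18119 in BXD89. The 13 axonal cargo kinesins of a fixed list had a median SD of 0.19 and the 11 mitotic kinesins one of 0.42. These are descriptions, and the median share of variance due to counting error was 0.83% in the first list and 20.6% in the second.

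The widest member was Kif18b, a kinesin-8 that shortens spindle microtubules, with an SD of 0.83 and scaled counts of 7, 19 and 63 in the lowest, median and highest strain. Kif14 followed with an SD of 0.72 and values of 3, 14 and 33. Kif2c, a kinesin-13 that removes faulty attachments at centromeres, had 0.65 and values of 11, 32 and 67. Kif27 had 0.64 with 2, 11 and 22. Kif4, a chromosome-bound kinesin-4, had 0.59 with 12, 24 and 72, and Kif24, a kinesin-13 of the centriole, had 0.59 with 22, 61 and 100. These 6 genes are all low, so single reads weigh more in them than in the axonal motors.

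The mitotic kinesins followed the markers of dividing cells. Correlations were computed over the 25 strains on log2(scaled count + 1) for each of the 53 members with 6 marker scores and the length index, 371 relations in all. Each has a two-sided permutation test with 100000 resamples, adjusted by Benjamini-Hochberg over all genes tested with that score. The smallest p this allows is 1e-05. All values of a strain come from 1 library and share its scaling. The score of 14 dividing cell markers, such as Mki67 and Top2a, contains no kinesin. With it 7 of 53 members correlated positively, against a background of 7.45% of all genes. All 7 are among the 11 mitotic kinesins: their median r was 0.58, and 0 of the 42 other members passed in that direction, with a median r of -0.26.

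Kif18b had r = 0.85 and rho = 0.84 (permutation p = 1e-05 for both, adjusted p = 0.00081 for r, n = 25 strains). Its highest strains were BXD40, BXD14 and BXD1 with 63, 51 and 43, and its lowest were BXD6, BXD13 and BXD68 with 7 each. Kif4 had r = 0.84 and rho = 0.79, with the same permutation p and adjusted p. Kif11, the kinesin-5 that pushes the spindle poles apart, had r = 0.82 (adjusted p = 0.00081 by permutation) and rho = 0.68 (permutation p = 0.00029). It ran from 58 in BXD5 through 81 to 164 in BXD14. The same strains thus stood high for all 3 genes: BXD1, BXD14 and BXD40 were the top 3 of each.

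Kif14, with r = 0.78, Kif15, a kinesin-12 of the spindle, with 0.76, Kif22, a chromosome-bound kinesin-10, with 0.58, and Kif20b, a kinesin-6 of cytokinesis, with 0.55 also passed (adjusted p by permutation from 0.00081 to 0.0450). The other 4 mitotic kinesins did not: Kif2c had r = 0.53 (adjusted p = 0.0550 by permutation), Kif20a 0.47, Kif18a 0.37 and Kif23 -0.21. Kif23, the kinesin-6 of the central spindle, is the only one of the 11 with a negative r. It ran from 96 in BXD40 through 177 to 302 in BXD14. Kif23 also passed with a positive correlation with the length index, with which the dividing cell score correlated negatively. Its r with the index regressed out is not given here, so the part of length in its negative r is left unassessed.

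Without BXD1 and BXD14, the 2 strains farthest from the median score, r was 0.79 for Kif18b, 0.74 for Kif4, 0.70 for Kif11, 0.69 for Kif14 and 0.60 for Kif15, which still passed. Dync2li1, not a mitotic kinesin, also passed upward there, which made 6 of 53 members (background 9.49%). Kif22 and Kif20b passed narrowly: neither passed without BXD1 and BXD14 (r of 0.48 and 0.52) or without BXD21, BXD36 and BXD40 (r of 0.55 and 0.52). Within the 16 TyJ strains r was 0.89, 0.87 and 0.85 for Kif18b, Kif4 and Kif11. Within the 9 RwwJ strains it was 0.55, 0.66 and 0.42. The dividing cell score itself correlated with the length index at r = -0.63. With the index regressed out of genes and score, Kif18b, Kif4, Kif11, Kif14 and Kif15 still passed, with r from 0.68 to 0.81 and adjusted p by permutation from 0.0019 to 0.0341. Kif21b, of the axonal cargo list, passed upward as well, which made 6 of 53 members (background 1.57%). Kif22 and Kif20b did not pass, with r of 0.50 and 0.47. The 3 genes most like Kif18b, Kif11 and Kif4 were looked up after their values were seen. For Kif18b they were Alox15 (r = 0.90), Mki67 (0.88) and Ermap (0.87). For Kif11 they were Rhd, a red cell gene (0.86), Mki67 (0.84) and Ccna2 (0.83). For Kif4 they were Atp8b4, Syk and Ptprc, a gene of white blood cells, each with r = 0.90. None of those found for Kif4 is a listed dividing cell marker. The part of blood cells in these relations was not tested.

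**Figure D2:**
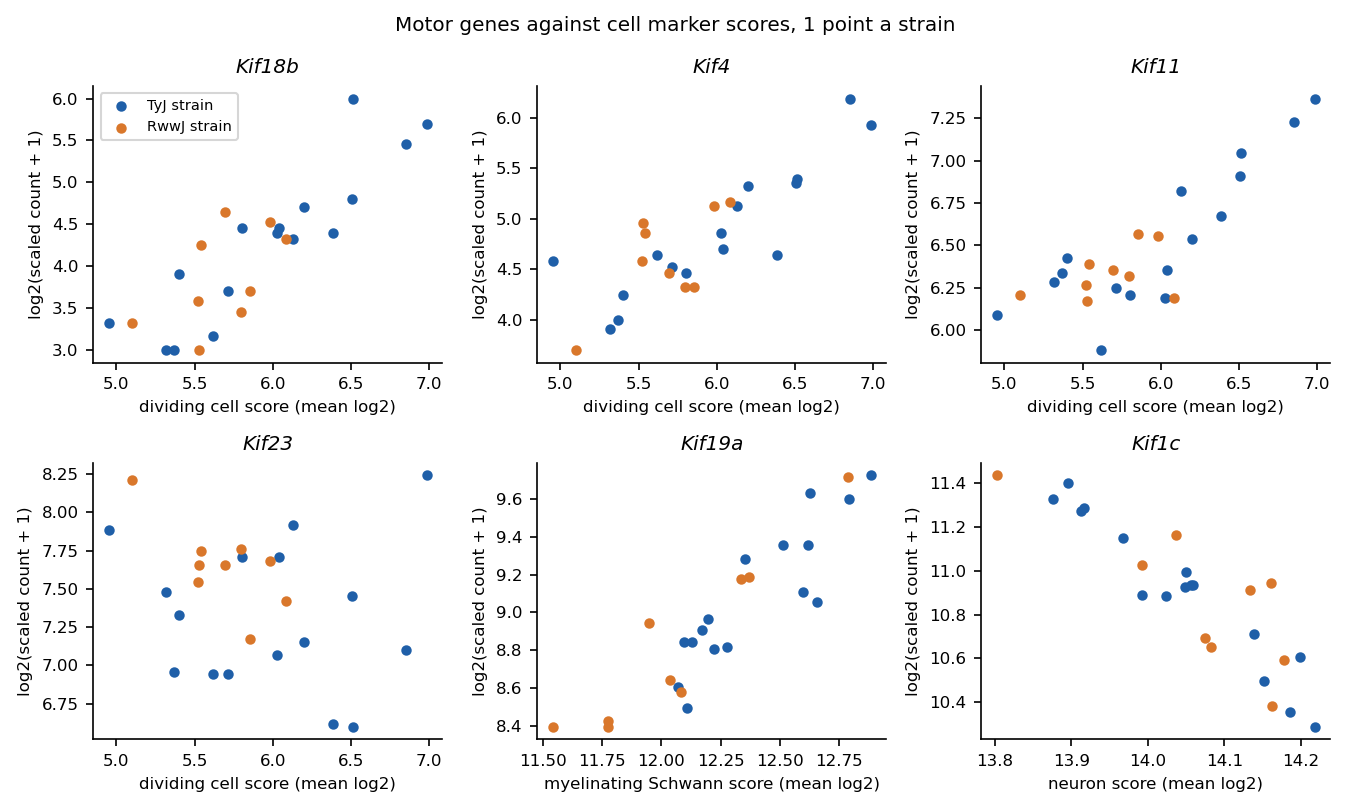
Level of 6 motor genes, as log2(scaled count + 1), against the marker score named on each x axis, with 1 point for each of 25 strains (blue TyJ, orange RwwJ). Kif18b, Kif4 and Kif11 rise with the dividing cell score at r of 0.82 to 0.85 and Kif23 does not (r = -0.21), Kif19a rises with the Schwann cell score (r = 0.91) and Kif1c falls with the neuron score (r = -0.90).

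Promoters of this set are shown because 7 of its 11 genes followed the dividing cell markers, with Kif23 as one that did not. Genes of late cell division are often controlled through a CHR element, written TTTGAA, and a CCAAT box. Both motifs were searched on both strands in the 150 bases before the RefSeq start (build GRCm38.p6), and can share no more than an end base. TTTGAA was present in 4 of 10 mitotic kinesin promoters and in 9.07% of 32851 promoters of that length. CCAAT was present in 6 of 10 and in 24.5%. Kif20a had no entry. Among the 7 genes that followed the dividing cell markers, 3 had TTTGAA and 5 had CCAAT. The table's starts for Kif14 and Kif2c lie 1547 and 3852 bases inside the gene, so their windows may miss the main promoter. Both windows are in the counts: Kif2c is 1 of the 4 with TTTGAA. Kif14 is 1 of the 6 with CCAAT and 1 of the 5 among the 7. The promoters of Kif11 (chr19:37376232-37376381, + strand), Kif15 (chr9:122950931-122951080, + strand), Kif18b (chr11:102925125-102925274, - strand), Kif4 (chrX:100625915-100626064, + strand) and Kif23 (chr9:61946800-61946949, - strand) are printed 5′ to 3′ on the strand of the gene. Capitals mark TTTGAA or CCAAT, or their complements TTCAAA and ATTGG.
Kif11: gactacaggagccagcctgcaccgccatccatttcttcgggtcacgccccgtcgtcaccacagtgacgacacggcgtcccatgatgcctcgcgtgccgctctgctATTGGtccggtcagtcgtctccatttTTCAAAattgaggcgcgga
Kif15: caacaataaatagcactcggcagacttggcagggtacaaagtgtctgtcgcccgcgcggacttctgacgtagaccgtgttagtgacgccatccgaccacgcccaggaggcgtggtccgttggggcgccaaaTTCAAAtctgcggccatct
Kif18b: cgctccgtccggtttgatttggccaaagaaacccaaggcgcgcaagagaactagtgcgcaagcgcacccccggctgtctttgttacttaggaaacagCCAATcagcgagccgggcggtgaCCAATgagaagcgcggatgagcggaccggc
Kif4: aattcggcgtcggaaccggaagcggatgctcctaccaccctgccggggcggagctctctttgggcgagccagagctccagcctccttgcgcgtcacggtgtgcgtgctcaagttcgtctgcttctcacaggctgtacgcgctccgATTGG
Kif23: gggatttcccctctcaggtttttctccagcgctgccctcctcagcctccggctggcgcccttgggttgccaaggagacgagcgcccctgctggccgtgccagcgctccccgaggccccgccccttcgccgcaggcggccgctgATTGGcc
In Kif11 and in Kif15 the TTCAAA word ends 13 bases before the start, Kif18b carries 2 CCAAT words and no TTTGAA, and Kif4 and Kif23 carry 1 ATTGG each. Kif23, which did not follow the markers, is not set apart by CCAAT. These are matches of letters, not measured sites.

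Kif19a, a kinesin-8 known for limiting the length of motile cilia, followed peripheral myelin. Its scaled counts ran from 336 in BXD68 and BXD73 through a median of 491 to 846 in BXD42. With the score of 10 myelinating Schwann cell markers it had r = 0.91 and rho = 0.90 (permutation p = 1e-05 for both, adjusted p = 0.0050 for r, n = 25 strains). It was the only member of 53 to pass with this score, against backgrounds of 0.52% upward and 0.173% downward. Without the farthest strains, BXD42 and BXD68, r was 0.89. It was 0.88 within TyJ and 0.94 within RwwJ. The genes most like it, chosen after its values were seen, were Cldn19 (r = 0.93), itself 1 of the 10 markers, Slc36a2 (0.92) and Ddn (0.91).

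Some subunits of dynein and dynactin, and Klc1 and Kif5a of kinesin-1, followed the neuron score. With the 12 neuron markers 8 of 53 members correlated positively, against a background of 5.51%, and 6 of the 8 are dynein or dynactin subunits. The other dynein and dynactin members, Dctn2, Dctn3, Dctn6, Dync1h1, Dync1li2, Dync2h1 and Dync2li1, did not pass. Dctn1, the dynactin arm that holds the microtubule, ran from 11649 in BXD1 through 14880 to 17907 in BXD73, with r = 0.81 and rho = 0.80 (permutation p = 1e-05, adjusted p = 0.00043). Dync1li1, a light intermediate chain that ties dynein to cargo adaptors, had r = 0.80 (adjusted p = 0.00043 by permutation). It was lowest in BXD55 with 4696 and highest in BXD21 with 7136. Klc1 had 0.70, Dctn4 0.66, Dync1i1 0.61, Dctn5 0.57, Kif5a 0.56 and Dync1i2 0.55, and all 8 still passed with the length index regressed out. Without BXD15 and BXD55, the strains farthest from the median score, Dctn4, Dync1i1, Dctn5 and Kif5a did not pass, with r of 0.44 to 0.54. Without BXD21, BXD36 and BXD40, Dync1i2 (r = 0.42) and Dctn5 (r = 0.48) did not pass.

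The number of members that followed the neuron score moved widely with the setting. With the length index regressed out 18 members passed upward (background 9.85%), 9 of them dynein or dynactin subunits. Without BXD21, BXD36 and BXD40 there were 19 (background 11.2%), 6 of them dynein or dynactin subunits, and long kinesin genes such as Kif1a, Kif1b and Kif5c joined. Without BXD15 and BXD55 there were 5 (background 3.47%).

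Kif1c went the other way, and was the only member that passed with a negative correlation (background 9.83%). Its scaled counts ran from 1250 in BXD21, 1307 in BXD36 and 1334 in BXD73 through 1946 to 2566 in BXD15, 2701 in BXD5 and 2772 in BXD55. Its r with the neuron score was -0.90 and rho -0.88 (permutation p = 1e-05 for both, adjusted p = 0.00043 for r, n = 25 strains). Without BXD15 and BXD55 r was -0.88, within TyJ -0.96 and within RwwJ -0.80. The gene most like it over the whole table, chosen after its values were seen, was another member, Dync1li1, with r = -0.94. Strains high in Kif1c were thus low in Dync1li1. Besides Kif1c, Kif13a and Kif13b passed downward with the length index regressed out (background 13.8%). Without BXD21, BXD36 and BXD40, Kif4 did (background 13.2%).

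With satellite glia markers Kif18a (r = 0.61), Dctn6 (0.55) and Dctn5 (0.55) passed upward (background 6.31%). Dync1li2 (-0.63), Kif3a (-0.63), Kif16b (-0.62) and Kif5c (-0.56) passed downward (background 6.19%). None of these 7 passed with the length index regressed out, nor without BXD21, BXD36 and BXD40. The satellite glia score itself correlated with the spinal cord score (r = 0.77), and BXD48 was highest in both. Without BXD48, 4 members passed upward (background 11.1%) and 8 downward (background 10.1%), and without BXD48 and BXD11, the strains farthest from the median score, 4 and 11 (backgrounds 12.3% and 11.5%). The part of carried-over spinal cord in these relations was not tested. With spinal cord markers 0 members passed upward (background 3.86%) and 1 downward (background 2.37%), Dync1li2 with r = -0.64 and -0.64 without BXD48. With skeletal muscle markers 0 members passed upward (background 0.533%) or downward (background 0.0062%). With dividing cell markers 6 members passed downward (background 3.56%): Dync1h1 with r = -0.69, Kif5a -0.67, Kif3c -0.66, Kif1a -0.64, Kif1b -0.61 and Kif26b -0.57. All 6 are long genes, and with the length index regressed out none passed, with r from -0.42 to -0.02. The count was 12 by Spearman's rho (background 7.54%) and 11 without BXD1 and BXD14 (background 7.93%).

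**Figure D3:**
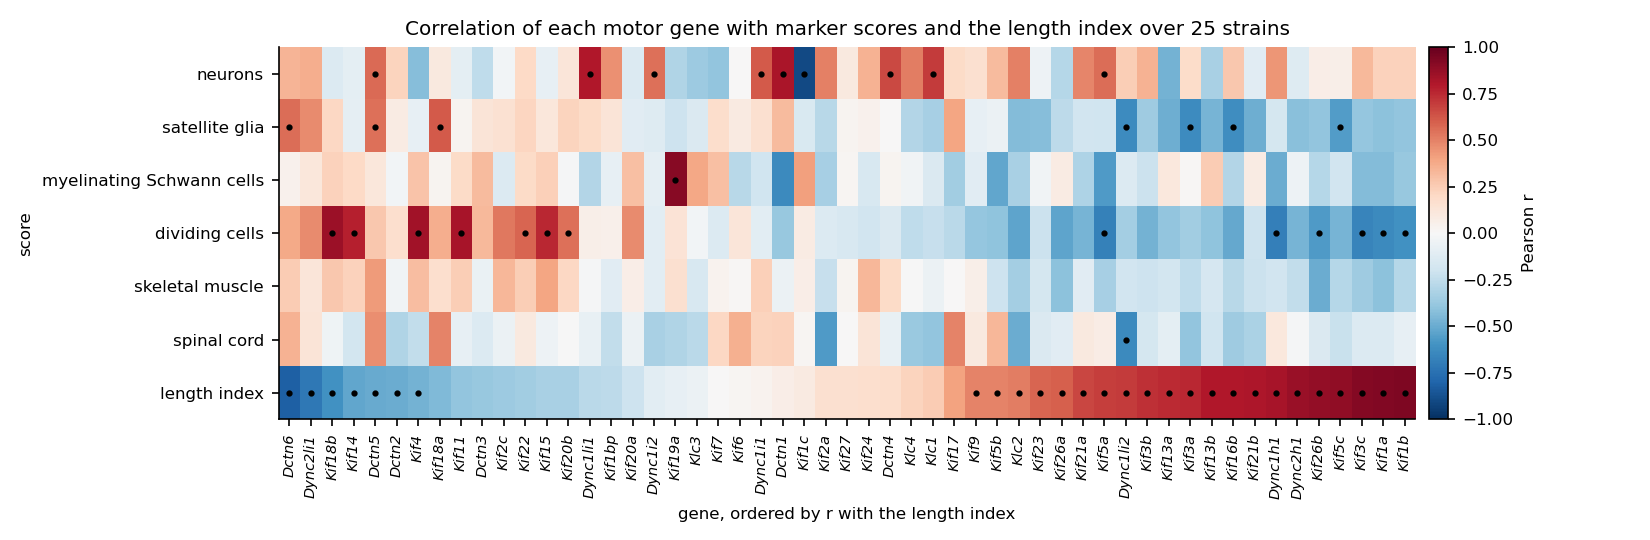
Pearson r of each of the 53 genes, ordered along the x axis by r with the length index, with 6 marker scores and the length index over 25 strains (red positive, blue negative, dots for an adjusted permutation p under 0.05). In the dividing cell row 7 mitotic kinesins carry positive dots and 6 other genes negative ones, and the length index row has 21 positive and 7 negative dots.

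Long motor genes followed the length index, which was added after the data were seen and leaves out the members themselves. It ran from -0.37 in BXD40 to 0.25 in BXD68. With it 21 of 53 members correlated positively and 7 negatively, against backgrounds of 22% and 23.4% of all genes. Motor genes are long: 29 of 53 have at least 5853 bases of exon. That is the lower bound of long genes when tested protein-coding genes outside the members are ordered by exon length into 3 classes. The same bounds were then applied to all tested genes. Among long genes 17 of 29 members (background 43.4%) correlated positively and 1 negatively (background 8.99%). Of the 6 members among short genes, those of up to 3326 bases, 0 correlated positively (background 5.49%) and 3 negatively (background 41.1%).

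Kif1b, with 17608 bases of exon, ran from 17434 in BXD36, 18126 in BXD40 and 20511 in BXD21 through a median of 27175 to 35152 in BXD68, with r = 0.93 (adjusted p = 8.4e-05 by permutation). Kif1a and Kif3c each had r = 0.92, Kif5c and Kif26b 0.88, Dync2h1, the heavy chain of ciliary dynein, 0.86 and Dync1h1 0.82. Dctn6, with 2853 bases, ran from 1878 in BXD87 through 2148 to 2766 in BXD40, 2830 in BXD21 and 3119 in BXD36, with r = -0.82. Dync2li1, with 1869 bases, had r = -0.72. In 15 of the 21 positive members the lowest strain was BXD21, BXD36 or BXD40. Without these 3 strains r stayed at 0.87 for Kif1b, 0.89 for Kif1a and 0.90 for Kif3c, and for Dctn6 it was -0.57. For Kif13a, a kinesin-3 motor of endosomes, it went from 0.74 to 0.25, and for Dctn2 from -0.49 to 0.11. Length did not sort all members: Dctn4 with 11591 bases had r = 0.17, Kif15 with 11020 bases -0.33, and Kif3a with 3586 bases 0.76. RNA quality was not measured in these files, and its part in the relation was not tested.

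**Figure D4:**
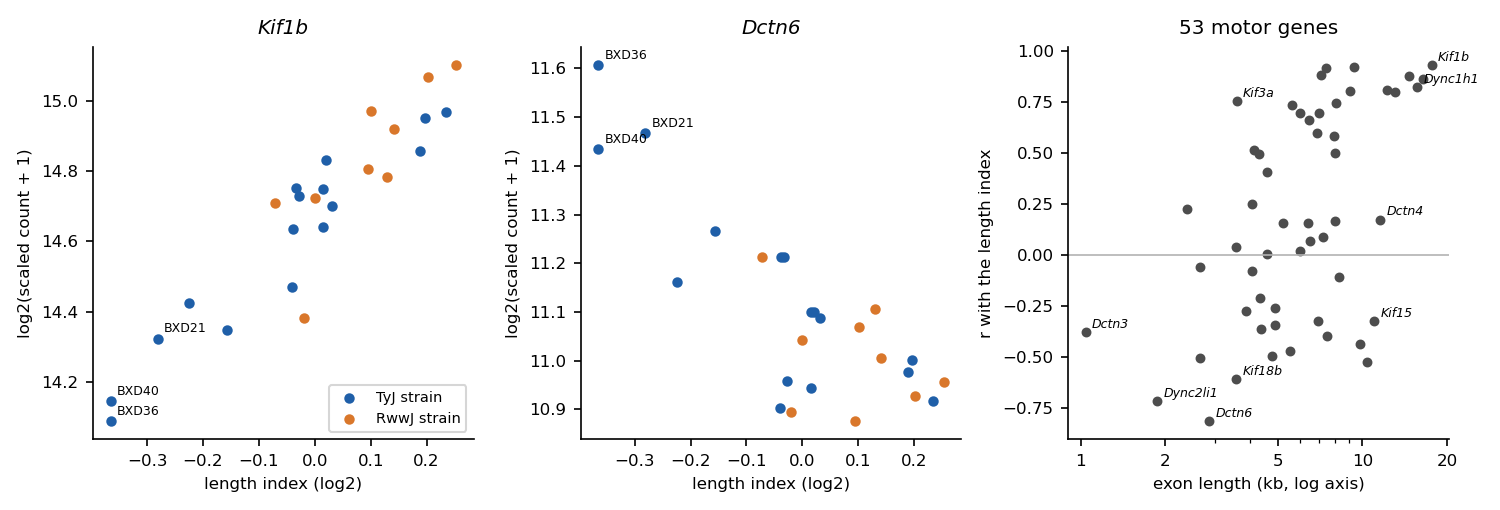
Left and middle, log2(scaled count + 1) of Kif1b and Dctn6 against the length index (log2), 1 point a strain (blue TyJ, orange RwwJ), with BXD21, BXD36 and BXD40 named. Right, r with the length index of each of the 53 genes against its exon length in kb on a log axis, where Kif1b has r = 0.93 and Dctn6 -0.82.

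A gene set by a single locus lies at 2 levels in recombinant inbred strains. Separate levels were called where the best split into sides of at least 5 strains took up at least 0.85 of the sum of squares. No member passed, 0 of 53, against a background of 1.85% of all genes. At a share of at least 0.80, 2 of 53 passed, Klc1 and Dctn3 (background 4.74%). The 3 highest shares were 0.81 for Klc1, 0.80 for Dctn3 and 0.79 for Kif18a. The genes most like Klc1 were Zcchc24 (r = -0.90), Ndrg4 (0.88) and Prpf19 (0.87), each on a chromosome other than that of Klc1. Those most like Kif18a, a kinesin-8 of chromosome alignment, were Mapk13 (0.79), Clmp (-0.78) and Mt1 (0.75), also on other chromosomes. Kif18a itself ran only from 39 through 51 to 71.

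Dctn3 differed in that all 3 genes most like it are its neighbours on chromosome 4. Its 9 lower strains lay between 2276 and 3477 with a median of 2698, and its 16 upper strains between 3930 and 6013 with a median of 4631. The lower side held BXD1, BXD13, BXD21 and BXD36 of the TyJ strains and BXD44, BXD48, BXD60, BXD68 and BXD89 of the RwwJ strains. AI464131, 9 places before Dctn3 in the order of tested genes, had r = -0.86, Fam205c, 8 places after it, 0.81, and Gm12394, 7 places after it, 0.74. In the same 9 strains Fam205c was 3 to 13, against 30 to 76 in the other 16, and Gm12394 was 1 to 7 against 8 to 35. The ranges of Fam205c lay apart, while those of Gm12394 met at 7 and 8. The 8 was BXD40, the strain highest in Dctn3. The best split of Gm12394 itself put that strain on the lower side, at up to 8 against 17 or more. Both genes were picked for their likeness to Dctn3, and the share of all genes without overlap was not computed. AI464131 was 588 to 1039 against 514 to 724, with overlap.

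Another motor gene lies in this stretch. Kif24, 11 places before Dctn3, had r = -0.69 with it. It was 62 to 100 with a median of 78 in the 9 strains low for Dctn3, and 22 to 77 with a median of 45 in the other 16, so the ranges overlapped. Of 80 genes within 40 places of Dctn3, 9 had an absolute r of at least 0.6 with it (11.3%), against 39 of 16071 other genes (0.243%). Neighbours are inherited together in these strains, so the values do not say which variant sets which gene. Fam205c belongs to a family with near copies on this chromosome, and how reads were shared between copies is not given in the sources used here. Genotypes were not analysed here.

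**Figure D5:**
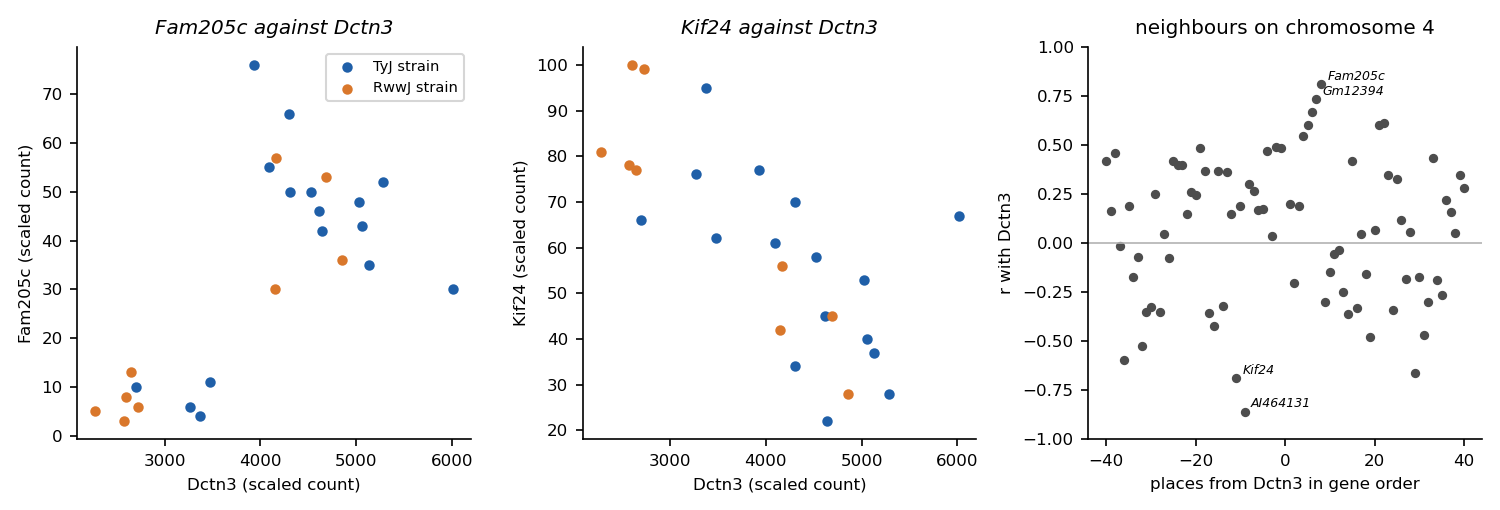
Left and middle, scaled counts of Fam205c and Kif24 against those of Dctn3, 1 point a strain (blue TyJ, orange RwwJ). Right, r with Dctn3 of the genes within 40 places in gene order on chromosome 4. Strains with Dctn3 at or under 3477 have Fam205c at 3 to 13, and Kif24 (r = -0.69) lies on the opposite side.

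The TyJ and RwwJ strains were compared for each gene with limma on log2(scaled count + 1), the only labelled contrast besides strain. No member was called at an adjusted p under 0.05, with 0 of 53 higher (background 0% of 16152 genes) and 0 lower (background 0%). At an unadjusted p under 0.05, limma gave 8 members higher in RwwJ (background 6.19%) and 3 lower (background 8.92%). The exact rank-sum permutation test gave 11 in all (background 13.9%). The smallest adjusted p of a member was 0.290 (limma, Benjamini-Hochberg over all genes). The members' median difference was 0.07 (log2, RwwJ minus TyJ), and that of all genes -0.0047. The difference was above 0 in 31 of 53 members, against 48.8% of all genes. The mean length index was -0.0519 in TyJ and 0.0923 in RwwJ. With the index as a covariate 1 member of 53 was left at an unadjusted limma p under 0.05 (background 3.61%). Without BXD21, BXD36 and BXD40 there were 4 (background 7.62%). The background in the main test was 15.1%, so the share of all genes fell as well.

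The 6 members with the smallest p are given with their values, none past the threshold. Dctn3 was 2698 to 6013 (median 4419) in TyJ and 2276 to 4857 (median 2723) in RwwJ, a difference of -0.38 ± 0.14 (log2, SE, 16 and 9 strains). Only 2 of 9 RwwJ strains lay above the TyJ mean, and 5 of 9 RwwJ but 4 of 16 TyJ strains were on the lower side of the split. Kif5a was 25512 to 42156 (median 30107) in TyJ and 26148 to 41769 (median 36493) in RwwJ, a difference of 0.23 ± 0.08. Kif18a was 39 to 71 (median 56) in TyJ and 39 to 51 (median 42) in RwwJ, a difference of -0.29 ± 0.11, with 0 of 9 RwwJ strains above the TyJ mean. Kif9, a kinesin of motile cilia, was 91 to 170 (median 122.5) in TyJ and 130 to 166 (median 152) in RwwJ, a difference of 0.22 ± 0.09. Kif3c was 4768 to 7090 (median 5996) in TyJ and 5341 to 7816 (median 6772) in RwwJ, a difference of 0.17 ± 0.07, with 4 RwwJ strains above all TyJ strains. Kif22 was 95 to 203 (median 129.5) in TyJ and 93 to 144 (median 112) in RwwJ, a difference of -0.22 ± 0.10. The ranges of TyJ and RwwJ overlapped for all 6.

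Partners of the motors were taken from a list of adaptors, dynein light chains, dynactin's actin-related parts and regulators, with 44 measured genes outside the members. Limma called 0 of 44 between RwwJ and TyJ, with 9 at an unadjusted p under 0.05 (15.1% of all genes). By the same permutation test, 3 of 44 correlated positively and 7 negatively with dividing cell markers (backgrounds 7.45% and 3.56%), and 3 and 1 with neuron markers (5.51% and 9.83%). With satellite glia markers these numbers were 4 and 7 (6.31% and 6.19%), with spinal cord markers 3 and 1 (3.86% and 2.37%), and with the length index 19 and 8 (22% and 23.4%). With Schwann cell and muscle markers 0 of 44 passed in either direction. Actr1a, the actin-related filament of dynactin, followed the neuron score with r = 0.73, as Dctn1 did. The other listed parts of dynactin did not pass with it: Actr1b had r = 0.41, Capzb 0.24, Actr10 0.17, Capza2 0.03 and Capza1 -0.05. The highest per kb were the shared light chains Dynlrb1 with 8086, Dynll2 with 7149 and Dynlt3 with 4950, above every member except Klc1.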

How the data were processed

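RNA of dorsal root ganglia was sequenced in 25 BXD strains with 1 library each, using, per the labels' protocols, Trizol extraction and a TruSeq RNA kit (v2). This kit keeps no strand, so reads of a gene and of an antisense partner cannot be told apart. Per the submitters' processing notes, the tools were CASAVA 1.8.0, HTSeq and TopHat2 2.0.9, on builds named NCBIM37 and mm9. The deposited values are a normalized score: whole numbers that the authors scaled to a common upper quartile of 1478 and rounded, so no count model was fitted. The scaling tool is not given in the sources used here. Totals were 24637919 to 26860283 per library. The step between low values gave an estimate of the reads assigned to listed genes for 23 libraries, not for BXD36 and BXD44.

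Names, gene order and exon lengths came from the GENCODE M21 release (15697 of 16220 identifiers matched, and all 53 members), and promoters from RefSeq. Scaled counts were tested as log2(value + 1) in 16152 genes whose mean reached 10, by limma 3.58.1 (R 4.3.3; trended prior, p-values adjusted by Benjamini-Hochberg) and by permutation tests with 100000 resamples (numpy 2.4.6). Both were tested on simulated data. The correlations had been planned with an adjustment over members and lists, and were adjusted over all genes tested within a score. Values by strain are given for the members with the 3 highest split shares, the 6 largest SDs, the 6 smallest limma p-values, the 6 highest levels per kb and the 6 largest correlations with a marker score. A planned comparison of protein stretches was not run. Members and lists were chosen with earlier results of these data known, and the length index was added after the data were seen. Alternatives changed the pseudocount, the low filter, the scaling, the test, the covariates and the libraries used.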

Additional observations from a re-analysis of the deposited data

Results flagged for a closer look

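In the 9 RwwJ strains, the gap between the lowest or highest strain and its neighbour was set against the whole range of the group by Dixon's criterion. Of 60 genes and scores tested this way, 5 had a strain that stood apart, where chance gives about 1 in 20. Kif5a was 26148 in BXD55, below the 33334 to 41769 of the other 8 RwwJ strains. Dync1h1 was 17997 in BXD55, below 23889 to 31943. The neuron score was 13.8 in BXD55, below 13.99 to 14.18. Kif26a was 101 in BXD60, below 148 to 211. Kif20a was 85 in BXD87, above 53 to 66.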

How the results depend on the processing

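Between RwwJ and TyJ, 0 members passed under each of the 10 alternatives, of 53 tested, or of 45 with a mean of at least 50 (pseudocount 10, no low filter, the higher minimum mean, array weights, the exact rank-sum test, median-of-ratios scaling, covariates for spinal cord and muscle or for length, and without BXD48 or without BXD21, BXD36 and BXD40). Separate levels were called in 0 members, in 2 with a share of at least 0.80 (Dctn3 and Klc1, background 4.74%), in 1 with at least 3 strains a side (Kif13a, background 1.93%) and in 1 without BXD21, BXD36 and BXD40 (Dctn3, background 2.30%). The lowest strains for Kif13a were BXD40, BXD21 and BXD36, also lowest in the length index, with 763, 780 and 784. The next strain, BXD15, had 1091. The median SD stayed between 0.21 and 0.25. Negative relations with the length index numbered 7 (background 23.4%). There were 4 without BXD21, BXD36 and BXD40 (background 19.3%) and 3 without the 2 farthest strains (background 18.5%). The r of Dctn2 turned from -0.49 to 0.11 without BXD21, BXD36 and BXD40. The cause was not tested. Of 59 relations that passed, 8 did not pass by Spearman's rho, 13 without the 2 farthest strains, 1 without BXD48, 22 without BXD21, BXD36 and BXD40, and 1 with median-of-ratios scaling. Of the 31 with a marker score, 15 did not pass with the length index regressed out. Counting error limits the members under a mean of 100, where its median share of the variance was 20.6%. No paired analysis was possible because the groups hold different strains with 1 library each, and a replicate number only names a strain.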
